A study of Mus musculus with 8 samples.

Results

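The NMDA receptor subunit genes are the 7 genes Grin1, Grin2a, Grin2b, Grin2c, Grin2d, Grin3a and Grin3b, taken by their GENCODE symbols from a table of 39017 genes. RNA bound to tagged ribosomes was sequenced from the mouse hippocampus by translating ribosome affinity purification (TRAP), in which a pull-down of the tag brings the RNA being translated with it. The 5 conditional knockout (cKO) libraries came from CCK cre+ mice crossed to L10-EGFP+ mice and carrying SMARCA3 fl/fl, and the 3 wild-type (WT) libraries from their littermates that lacked SMARCA3 fl/fl. The tag, EGFP on the ribosomal protein L10, is made after Cre recombination and so marks cells with present or past Cck expression. SMARCA3 is encoded by Hltf. Each library pooled 4 hippocampi; age, sex and the relation between pools were not given, so p-values measure the spread between these pools. In pooled tissue, fewer cells of a type and less RNA per cell cannot be told apart.

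NMDA receptors are glutamate-gated cation channels that open when glutamate and a co-agonist, glycine or D-serine, are bound and depolarization relieves the magnesium block of the pore. They are tetramers: GluN1, from Grin1, is required in every receptor and binds the co-agonist, and the GluN2 subunits, from Grin2a to Grin2d, bind glutamate and set the kinetics. GluN3 subunits, from Grin3a and Grin3b, bind glycine and lower calcium permeability. In the hippocampus these receptors are known for their role in long-term potentiation, and GluN2B is gradually joined by GluN2A as the forebrain matures.

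The subunits share most of their sequence in the membrane segments that line the pore, and this bears on whether reads of one gene could be counted for another. The coding stretch of 60 bases that ends in the conserved motif of the third membrane segment was read from GENCODE vM21 transcripts (mm10). It is shown for Grin1 and for 1 gene each of the Grin2 and Grin3 groups, written 5′ to 3′ in the sense direction, with bases that differ from Grin1 in capitals.
Grin1: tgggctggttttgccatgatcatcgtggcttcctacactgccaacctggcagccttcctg
Grin2a: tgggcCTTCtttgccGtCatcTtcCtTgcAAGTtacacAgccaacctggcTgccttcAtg
Grin3b: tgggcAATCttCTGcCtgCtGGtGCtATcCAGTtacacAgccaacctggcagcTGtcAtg
Each stretch lies within 1 exon, at chr2:25297196-25297255 and chr16:9653444-9653503, both on the minus strand, and chr10:79974606-79974665 on the plus strand. Grin2a differed from Grin1 at 16 of the 60 bases, Grin3b differed from Grin1 at 23, and Grin2a and Grin3b differed from each other at 17. Over whole transcripts, the longest run of identical bases in any pair of the 7 genes was 34, between Grin2b and Grin2c. Read length was not given.

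Total counts ran from 31760155 to 61823651 per library. Hltf, the targeted gene, was at 2.83 to 5.10 CPM (the count relative to the library total, scaled by the TMM method of edgeR) in cKO 1 to 4 and at 8.39 to 13.7 CPM in the WT libraries. The library labelled cKO 5 had 11.4 CPM of Hltf, inside the WT range, which goes against its label. That library stood apart on the first principal component of log2 CPM (31.1% of variance) and cKO 4 on the second (22.3%), and values without one or both stand beside the results they move most. Neuronal markers were abundant: 5 general neuronal genes summed to 16330 to 21565 CPM in cKO and 19117 to 23512 CPM in WT. Most of this came from Snap25, with a mean of 17265 CPM in cKO and 19140 CPM in WT. Glutamatergic markers summed to 8087 to 12165 CPM in cKO and 7542 to 8038 CPM in WT, far above the 139 to 225 CPM in cKO and 176 to 219 CPM in WT of the GABAergic markers. Camk2a alone gave most of the glutamatergic sum. These sums are not scaled by gene length and do not measure shares of cells.

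SMARCA3 belongs to the SWI/SNF-related helicases, and the design sets ribosome-bound RNA of cells meant to lack it against that of cells that have it. All 7 subunit genes passed the filter on low counts, and 0 passed an adjusted p under 0.05 by edgeR, as 0% of the 17654 genes tested did. At an unadjusted p under 0.05 there were 1540 genes (8.72%), with Grin1 and Grin2c among them. Grin2c entered the test only through its cKO libraries, having 2 counts in all of WT, so its direction was set by the filter and its place in these counts is a description. DESeq2 called 125 genes (1.1% of those it gave an adjusted p) and limma-voom 4 (0.0227%), none of them a subunit gene. Groups did not overlap for 1 of the 7, Grin1, and for 7.19% of all genes, 3.38% with cKO above WT as for Grin1. Without the library labelled cKO 5, the same rules took 2 subunit genes at an unadjusted p under 0.05 (8.77% of genes, 4.47% higher in cKO) and 1 without overlap (9.72%, 4.75% higher in cKO). Without it and cKO 4 they took 2 (9.38%, 4.45% higher in cKO) and 2 (15.1%, 7.57% higher in cKO), Grin1 and Grin2c in both.

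**Figure D1:**
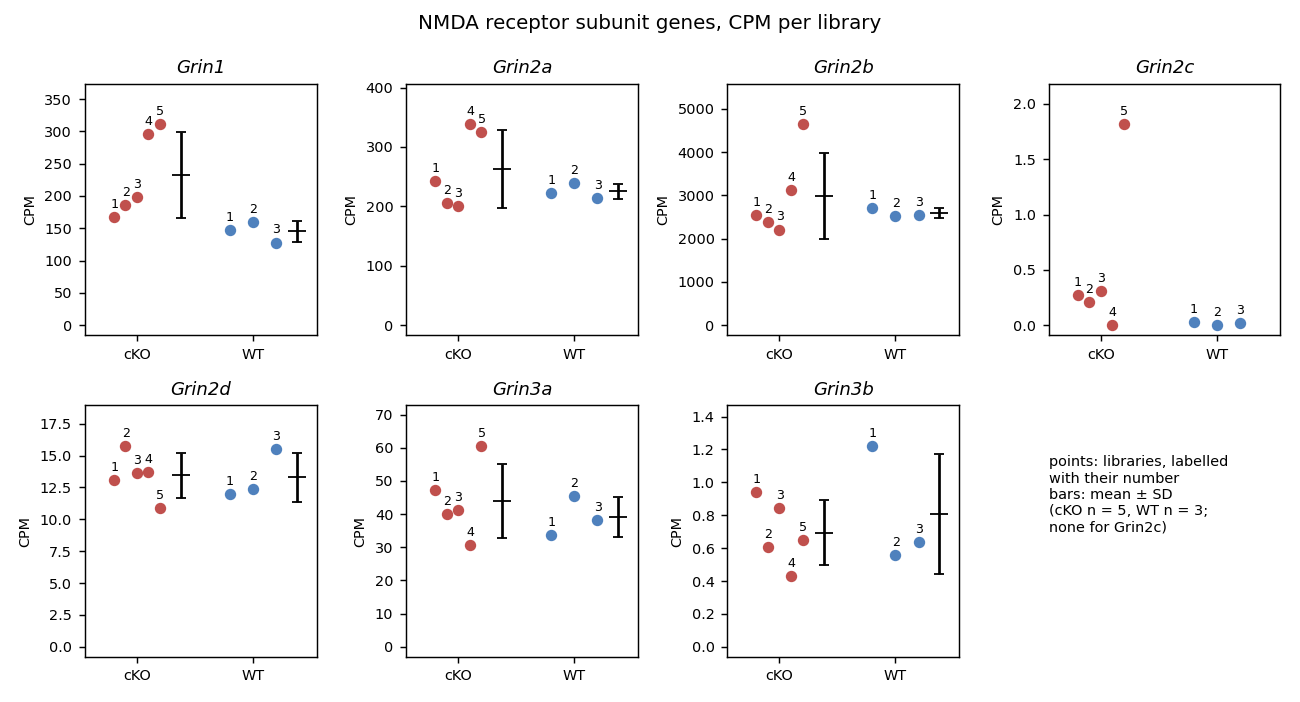
CPM (vertical axes, from 0) of the 7 subunit genes in each cKO (left) and WT (right) library, with the mean and SD per group except for Grin2c. Grin1 does not overlap between groups, while cKO 4 and the library labelled cKO 5 stand above the other cKO libraries for Grin1, Grin2a and Grin2b.

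Grin1 (ENSMUSG00000026959, mm10 chromosome 2, 25291181 to 25319187, minus strand) was at 167, 186, 199 and 295 CPM in cKO 1, 2, 3 and 4 and at 312 CPM in the library labelled cKO 5. In WT 1, 2 and 3 it was at 148, 160 and 128 CPM. All 5 cKO libraries lay above all 3 WT libraries, and cKO 4 and the library labelled cKO 5 lay well above the other 3. Means were 232 ± 66.6 CPM (SD, n = 5) in cKO and 145 ± 16.2 CPM (SD, n = 3) in WT. The fold was 1.60 (95% interval 1.17 to 2.19; log2 0.68, SE 0.21). By edgeR its p was 0.00732 before adjustment and 0.499 after it. The exact permutation test of log2 CPM, two-sided over all 56 assignments of the group labels, gave a p of 0.0536, against a smallest possible p of 0.0179.

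Grin1 had a log2 fold change of 0.54 (adjusted edgeR p 0.490) once the library labelled cKO 5 was left out. Without it and cKO 4 the value was 0.34 (unadjusted p 0.0112, adjusted p 0.413), and the remaining 3 cKO libraries still lay above the WT libraries. The transcript of Grin1 is rich in G and C (59.4%), and after a correction for GC content and transcript length the log2 fold change was 0.45 (adjusted edgeR p 0.540). With the level of non-neuronal markers as a covariate it was 0.91, with an adjusted edgeR p of 0.0105. That fit called 329 genes (1.86%, with 1.25% higher in cKO). The covariate was 0.56, 0.19 and 0.34 in cKO 1, 2 and 3, against -0.28, -0.10 and -0.14 in WT 1, 2 and 3. In cKO 4 and the library labelled cKO 5, which had most Grin1, it was -0.24 and -0.32. It thus varied with genotype and within cKO. The summed glutamatergic markers, of which 3 of 8 had an unadjusted p under 0.05 and none was at 0 in any library, were at 8087, 8151, 8695 and 9815 CPM in cKO 1, 2, 3 and 4 and 12165 CPM in the library labelled cKO 5. In WT 1, 2 and 3 they were at 8038, 7638 and 7542 CPM, so this sum too was highest in the libraries with most Grin1. Camk2a alone made up most of it, with a mean of 7567 CPM in cKO and 6076 CPM in WT. The other 2 with an unadjusted p under 0.05, Slc17a7 and Cpne6, had log2 values of 0.49 and 0.36, while Neurod6, Neurod2, Emx1 and Tbr1 had values of -0.08, -0.09, -0.66 and -0.18, and the median of the 8 was 0.0030. Over the 6 libraries the median was -0.07. At an unadjusted p under 0.05 by edgeR there were then 2 of the 8 with a positive value and 1 with a negative value. Slc17a7 was at 0.39 and Cpne6 at 0.31 over these 6. Their part in the Grin1 result was not tested.

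Grin1 overlaps the antisense gene Grin1os, and the strand setting of the counting was not given, so reads of these genes may not be fully separated. Grin1os was at 53.4, 41.6, 49.98 and 91.6 CPM in cKO 1, 2, 3 and 4 and at 92.1 CPM in the library labelled cKO 5, against 37.9, 42.8 and 32.6 CPM in WT 1, 2 and 3. Its groups overlapped, because cKO 2 lay below WT 2, and its log2 fold change was 0.80 (SE 0.27, adjusted edgeR p 0.499), and 0.35 without cKO 4 and the library labelled cKO 5. With both genes counted as one, the log2 fold change of Grin1 was 0.70 (adjusted edgeR p 0.500).

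The promoter of Grin1 is shown because this was the member with separated groups, and that of Grin2c because it had almost no counts in WT. Both are RefSeq sequences (GRCm38.p6) from 250 bases before to 50 bases after the annotated start, written 5′ to 3′ on the minus strand that carries each gene. Capitals mark the GC box GGGCGG, the core of the site of Sp1-type factors, searched on both strands.
Grin1, chr2:25319138-25319437: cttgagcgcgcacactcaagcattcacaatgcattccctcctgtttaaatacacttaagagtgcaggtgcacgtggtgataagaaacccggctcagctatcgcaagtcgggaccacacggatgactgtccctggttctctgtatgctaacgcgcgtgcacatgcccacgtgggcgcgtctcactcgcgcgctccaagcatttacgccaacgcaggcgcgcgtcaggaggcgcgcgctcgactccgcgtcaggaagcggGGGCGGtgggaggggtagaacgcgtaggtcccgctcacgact
Grin2c, chr11:115267194-115267493: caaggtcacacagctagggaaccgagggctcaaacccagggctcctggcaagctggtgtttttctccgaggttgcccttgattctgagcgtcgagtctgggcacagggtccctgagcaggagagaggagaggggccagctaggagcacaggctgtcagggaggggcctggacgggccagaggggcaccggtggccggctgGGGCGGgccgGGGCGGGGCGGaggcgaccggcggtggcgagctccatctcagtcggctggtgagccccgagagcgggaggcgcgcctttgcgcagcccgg
The Grin1 window holds 1 match and the Grin2c window 3, the last pair sharing a base. Of 32851 promoter windows of this length in the table, 35.7% hold at least 1 match. GC content was 60.7% in the Grin1 window, with 33 CpG dinucleotides, and 70.0% in the Grin2c window, with 22. A match is a description of the sequence and not a sign that a factor binds there.

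Grin2a (ENSMUSG00000059003, chromosome 16, 9567898 to 9995560, minus strand) was at 243, 205, 201 and 339 CPM in cKO 1, 2, 3 and 4 and at 325 CPM in the library labelled cKO 5. WT 1, 2 and 3 had 223, 239 and 214 CPM. The WT libraries lay within the cKO range, with cKO 4 and the library labelled cKO 5 well above them, cKO 1 just above WT 2, and cKO 2 and 3 below all 3. The fold of 1.17 (95% interval 0.890 to 1.53) had an adjusted edgeR p of 0.770, and its log2 value of 0.22 turned to -0.07 without these 2 high libraries.

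Grin2b (ENSMUSG00000030209, chromosome 6, 135713233 to 136173511, minus strand) had by far the most counts, 70894 to 171386 in cKO and 102081 to 126674 in WT. Its level was 2553, 2384, 2211 and 3129 CPM in cKO 1, 2, 3 and 4 and at 4655 CPM in the library labelled cKO 5, against 2714, 2523 and 2539 CPM in WT 1, 2 and 3. The WT libraries lay close together, while the cKO libraries fell on both sides of them. The fold was 1.15 (95% interval 0.839 to 1.58; log2 0.20, SE 0.21), with an adjusted edgeR p of 0.835. The log2 value was -0.02 without the library labelled cKO 5 and -0.13 without it and cKO 4, so its sign rested on 1 library. By mean CPM, Grin2b ranked 13th of the 17654 genes tested, and by CPM per kilobase of exon it ranked 488th of 17333.

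Grin2c (ENSMUSG00000020734, chromosome 11, 115249169 to 115267243, minus strand) encodes the subunit best known from cerebellar granule cells. It had 14, 13, 10 and 0 counts in cKO 1, 2, 3 and 4 and 67 counts in the library labelled cKO 5, against 1, 0 and 1 counts in WT 1, 2 and 3. In cKO 4 and WT 2, a count of 0 allows up to 0.0632 and 0.0606 CPM (3 counts of the library total). The cKO libraries other than cKO 4 lay above WT, and the library labelled cKO 5 held most of the counts. Together these were 104 counts of 231459278 in cKO and 2 of 134432546 in WT, a ratio of 30.2 (exact 95% interval 8.15 to 253, which covers counting error only). The interval pools the reads of each group and leaves out the spread between libraries. The filter had set the direction, so the ratio and its interval are descriptions and no evidence of a rise. Without the library labelled cKO 5 there were 37 counts in cKO and the ratio was 12.9 (3.33 to 111).

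The edgeR p of Grin2c was 0.0157 unadjusted and 0.499 adjusted, and the exact permutation p was 0.125. Grin2c passed the filter on low counts through its cKO libraries, and without cKO 1 it no longer did. Its p-values are therefore descriptions and no support for a difference. Astrocyte markers, all 10 in the table and with Aldh1l1 at 0 in some libraries, summed to 345 to 510 CPM in cKO and 333 to 443 CPM in WT, most of it from Slc1a2 (307 to 478 CPM in cKO, 299.9 to 405 CPM in WT). The members differed in the library labelled cKO 5, which held most Grin2c. The sum and Slc1a2 were lowest there among the cKO libraries. So were Slc1a3 (2.47 CPM, against 2.57 to 6.44 CPM in cKO 1 to 4) and Aqp4 (0.109 against 1.25 to 5.11 CPM). Gja1 (0.136 against 0.272 to 3.11 CPM) and Aldh1l1 (0.0543 against 0.187 to 0.713 CPM) were lowest there too. S100b (9.89 CPM, against 4.52 to 5.98 CPM in cKO 1 to 4), Fgfr3 (4.51 against 1.25 to 2.44 CPM) and Gjb6 (2.58 against 0.240 to 1.06 CPM) were highest there. Gfap and Aldoc were neither lowest nor highest there. Oligodendrocyte markers, 10 genes none of which was at 0, summed to 84.6 to 110 CPM in cKO and 72.5 to 77.7 CPM in WT. The 6 precursor markers, Olig2 at 0 in some libraries, summed to 5.72 to 9.10 CPM in cKO and 3.32 to 4.23 CPM in WT. The oligodendrocyte and precursor sums lay higher in every cKO library than in any WT library, and the part of these markers, astrocyte ones included, in the Grin2c counts was not tested.

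Grin2d (ENSMUSG00000002771, chromosome 7, 45831883 to 45878378, minus strand), which in the hippocampus is known mainly from interneurons, was at 13.1, 15.8, 13.7 and 13.7 CPM in cKO 1, 2, 3 and 4 and at 10.9 CPM in the library labelled cKO 5. WT 1, 2 and 3 had 11.99, 12.4 and 15.5 CPM. The groups covered nearly the same range. The fold was 1.01 (95% interval 0.766 to 1.33) with an adjusted edgeR p of 0.988. After the correction for GC content and length its log2 value was -0.28 (adjusted edgeR p 0.804), in a transcript with 65.0% G and C.

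Grin3a (ENSMUSG00000039579, chromosome 4, 49661611 to 49845744, minus strand) was at 47.2, 40.0, 41.3 and 30.7 CPM in cKO 1, 2, 3 and 4 and at 60.7 CPM in the library labelled cKO 5. WT 1, 2 and 3 had 33.6, 45.5 and 38.2 CPM. cKO 4, high for Grin1 and Grin2a, was the lowest of all 8 libraries for Grin3a. The fold was 1.12 (95% interval 0.828 to 1.52), with an adjusted edgeR p of 0.868, and without the library labelled cKO 5 the log2 value was 0.02 in place of 0.17.

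Grin3b (ENSMUSG00000035745, chromosome 10, 79970715 to 79977190, plus strand), known mainly from motor neurons, had 20 to 49 counts in cKO and 28 to 46 in WT. Its level was 0.939, 0.607, 0.842 and 0.432 CPM in cKO 1, 2, 3 and 4 and at 0.652 CPM in the library labelled cKO 5, against 1.22, 0.558 and 0.639 CPM in WT 1, 2 and 3. The groups overlapped, and the fold of 0.863 had a 95% interval of 0.361 to 2.06 (adjusted edgeR p 0.951). Exons of Grin3b overlap those of Tmem259 on the opposite strand, which had 398 to 884 counts per library, so its counts are uncertain.

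**Figure D2:**
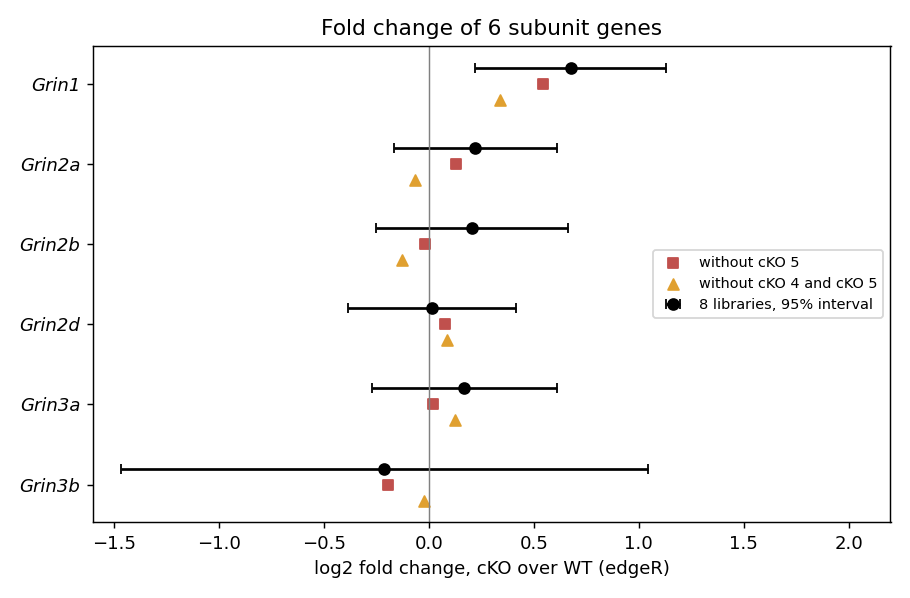
Log2 fold change of cKO over WT (horizontal axis) for 6 subunit genes, with the 95% interval of the 8-library edgeR fit (circles) and the values without the library labelled cKO 5 (squares) and without it and cKO 4 (triangles). Grin1 stays above 0 at 0.68, 0.54 and 0.34, while Grin2b is at 0.20, -0.02 and -0.13.

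Divided by the length of the union of exons, the levels of the 7 genes had the same order in both groups. In CPM per kilobase, Grin2b averaged 120 ± 40.0 in cKO and 104 ± 4.26 in WT, and Grin1 averaged 23.9 ± 6.87 in cKO and 15.0 ± 1.67 in WT (SD, n = 5 and n = 3). Grin2a averaged 14.6 ± 3.67 CPM per kilobase in cKO and 12.6 ± 0.699 in WT, followed by Grin3a (3.58 ± 0.899 in cKO, 3.19 ± 0.490 in WT) and Grin2d (2.02 ± 0.262 in cKO, 1.996 ± 0.292 in WT). Grin3b (0.211 in cKO, 0.245 in WT) and Grin2c (0.104 in cKO, 0.0031 in WT) came last. Down to Grin3b each gene lay above the next in all 8 libraries, and Grin3b lay above Grin2c in 7, the library labelled cKO 5 being the exception.

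Grin2b thus made up 72.6 ± 2.66% of the summed per-kilobase level of the 7 genes in cKO and 76.0 ± 1.66% in WT. Such shares depend on the length used: the exons of Grin1 cover 9700 bases and its longest transcript 4276. By the longest transcript, Grin1 averaged 46.6 CPM per kilobase over the 8 libraries, against 20.6 by all exons. Grin2b averaged 118 by the longest transcript and 114 by all exons. The share of Grin1 was 12.3, 14.5, 16.2 and 16.9% in cKO 1, 2, 3 and 4, while the library labelled cKO 5 had 13.1%, against 10.7, 12.03 and 9.91% in WT 1, 2 and 3. These shares did not overlap between groups. Within a library, the scaling of library totals cancels in a ratio of genes. Effects of GC content need not cancel, with 59.4% G and C in the Grin1 transcript, 44.8% in Grin2a and 45.7% in Grin2b. The share of Grin1 and its ratios rest on the same Grin1 values. The ratio of Grin1 to Grin2a was 1.27, 1.68, 1.83 and 1.61 in cKO 1, 2, 3 and 4, with 1.77 for the library labelled cKO 5, and 1.23, 1.24 and 1.10 in WT 1, 2 and 3. Every cKO library was above every WT library, although cKO 1 lay only just above WT 2. With cKO 4 and the library labelled cKO 5 both left out, the mean was 1.60 ± 0.289 in cKO (SD, n = 3), against 1.19 ± 0.0738 in WT.

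The ratio of Grin1 to the 4 summed Grin2 genes was 0.177 ± 0.0271 in cKO and 0.126 ± 0.0142 in WT, again without overlap (0.146 to 0.207 in cKO, 0.113 to 0.141 in WT), and 0.174 ± 0.0274 in cKO without those 2 libraries. The ratio of Grin2b to Grin2a was 7.59, 8.40, 7.95 and 6.66 in cKO 1, 2, 3 and 4, with 10.3 for the library labelled cKO 5, and 8.80, 7.63 and 8.57 in WT 1, 2 and 3. Here the groups overlapped, with means of 8.19 ± 1.36 in cKO (7.98 ± 0.410 without those 2 libraries) and 8.33 ± 0.618 in WT. The ratios are descriptions without a test, and their size depends on the length used: with the longest transcript in place of all exons, Grin1 to summed Grin2 was 0.379 in cKO and 0.270 in WT. A level by length also assumes that all annotated exons are transcribed and evenly covered, which counts per gene cannot show.

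**Figure D3:**
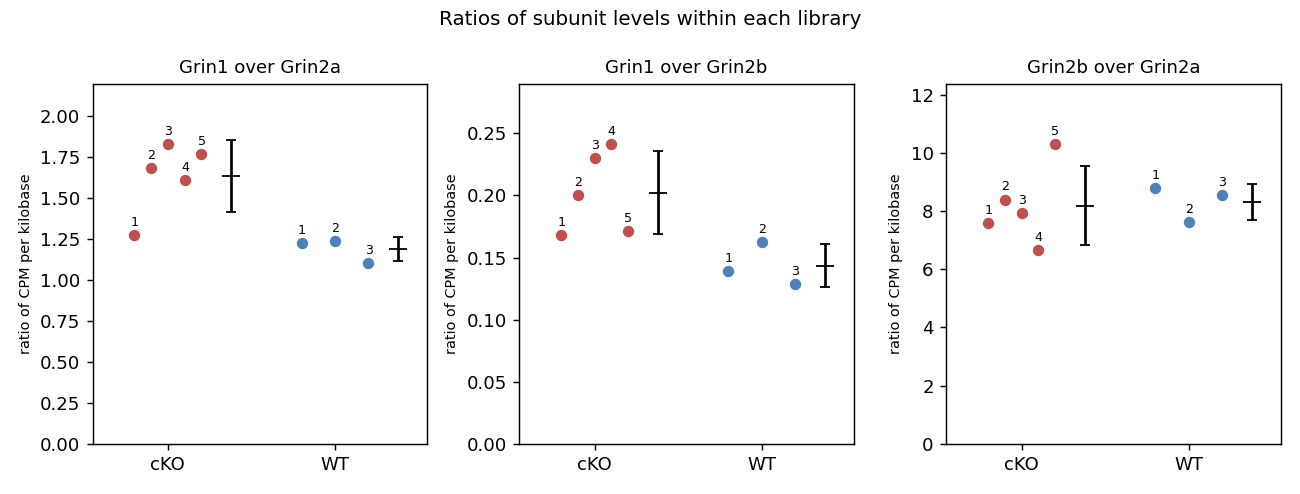
Ratios of CPM per kilobase of exon between subunit genes (vertical axes, from 0) in each cKO (left) and WT (right) library, with the mean and SD per group. Grin1 over Grin2a (1.27 to 1.83 in cKO, 1.10 to 1.24 in WT) and Grin1 over Grin2b (0.168 to 0.242 in cKO, 0.129 to 0.162 in WT) do not overlap, while Grin2b over Grin2a does.

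Among 8168 named genes with a mean of at least 10 CPM, those with a pattern over the 8 libraries most like that of Grin1 were Ly6h, whose protein binds nicotinic acetylcholine receptors (Pearson r 0.986), Lrrc4b, a synaptic adhesion protein (0.986), and Gins2, a DNA replication factor (0.978). Those most like Grin2a were Sirpa, a receptor of the immunoglobulin superfamily (0.981), Ext1, an enzyme of heparan sulfate synthesis (0.979), and the cytoskeletal linker gene Dst (0.9747). Those most like Grin2b were Fntb, a farnesyltransferase subunit (0.984), Mgat3, an enzyme of N-glycan synthesis (0.984), and Prr14l (0.978). All 8 libraries enter these values, including cKO 4 and the library labelled cKO 5, which were high for Grin1, Grin2a and Grin2b. Grin1 and Grin2b had an r of 0.711 over 8 libraries and -0.758 over the 6 without these. Grin1 and Grin2a had 0.804 and -0.338, and Grin2a and Grin2b had 0.835 and 0.655. The likeness of Grin1 to Grin2a and to Grin2b thus rested on those libraries. For the named genes, r over the 6 libraries ran from 0.782 (Dst with Grin2a) to 0.970 (Ly6h with Grin1). These genes were picked by r over the 8 libraries, which include those 6, so this range is no separate check.

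Other glutamate receptor families were set beside the 7 genes. Of the AMPA receptor genes, 0 of 4 had an unadjusted edgeR p under 0.05, with a median log2 fold change of 0.18. Of the kainate receptor genes, 1 of 5 did (Grik5, median of the family 0.03), and of the metabotropic genes tested 2 of 7 (median 0.06), all with positive fold changes. Over all genes tested, 8.72% had an unadjusted p under 0.05, 5.02% with a positive fold change, and the median was 0.02. None passed an adjusted p under 0.05, and no difference between families was tested.

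The genes around the receptor were taken from 5 lists with 71 genes tested in all. These lists were chosen with earlier results of these data known, so their counts are descriptions and no test of enrichment. None passed an adjusted p under 0.05 by edgeR, and at an unadjusted p under 0.05 there were 13, all with positive fold changes, against 5.02% of all genes tested in that direction. Without the library labelled cKO 5 there were 7, against 4.47% of all genes, and without it and cKO 4 there were 8, against 4.45%, again all with positive fold changes. Of the scaffold genes 3 of 15 did so, with a median log2 fold change of 0.12. Shank3, a scaffold of the postsynaptic density, was at 19.1, 21.1, 24.5 and 34.4 CPM in cKO 1, 2, 3 and 4 and at 44.1 CPM in the library labelled cKO 5, against 16.2, 14.8 and 17.8 CPM in WT 1, 2 and 3. Its groups did not overlap, and cKO 4 and the library labelled cKO 5 were again the highest. Its log2 fold change was 0.82 (SE 0.27, adjusted edgeR p 0.499), and it was 0.60 without the library labelled cKO 5 and 0.40 without both. Shank1, of the same family, was at 848 ± 359 CPM in cKO and 506 ± 41.5 CPM in WT (log2 0.74), and Dlgap3, which links Shank proteins to PSD-95, at 28.7 ± 11.7 CPM in cKO and 18.6 ± 2.56 CPM in WT (0.62), with overlap in both. Without the library labelled cKO 5 these values were 0.49 for Shank1 and 0.35 for Dlgap3, and without it and cKO 4 they were 0.28 and 0.39. Without cKO 4 and the library labelled cKO 5, 1 of the 15 had an unadjusted p under 0.05.

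Among kinases and phosphatases that act on the receptor, 4 of 19 had an unadjusted edgeR p under 0.05 (median 0.02). All 4 had positive fold changes, as 5.02% of all genes tested did at that p. Prkaca, the catalytic subunit of protein kinase A, was at 214, 263, 308 and 248 CPM in cKO 1, 2, 3 and 4 and at 309 CPM in the library labelled cKO 5, against 190, 198 and 203 CPM in WT 1, 2 and 3. The groups did not overlap, the cKO 3 library being as high as the library labelled cKO 5. Its log2 fold change was 0.44 (SE 0.13, adjusted edgeR p 0.499), and 0.40 without cKO 4 and the library labelled cKO 5. Dapk1, a death-associated kinase that binds GluN2B, was at a log2 value of 0.24. The count was 2 of 19 without the library labelled cKO 5, against 4.47% of all genes higher in cKO.

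Of the genes of calcium signalling downstream, 4 of 16 had an unadjusted edgeR p under 0.05 (median 0.09), against 5.02% of all genes higher in cKO. Without cKO 4 and the library labelled cKO 5 there were 2, against 4.45% of all genes higher in cKO. Camk2b, a subunit of the kinase that binds GluN2B after calcium entry, was at 759 ± 54.3 CPM in cKO and 637 ± 11.4 CPM in WT, without overlap (696 CPM in the lowest cKO library, 649 CPM in the highest WT library). Its log2 fold change of 0.25 (SE 0.08, adjusted edgeR p 0.499) was 0.20 without cKO 4 and the library labelled cKO 5. Nos1, the neuronal nitric oxide synthase tied to the receptor by PSD-95, was at a log2 value of 0.41, without overlap. That value was 0.24 without the library labelled cKO 5, which had 188 CPM against 110 to 131 CPM in the other cKO libraries, and 0.27 without it and cKO 4.

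Of all genes tested, 5.02% had an unadjusted edgeR p under 0.05 and a positive fold change. Of the transport and auxiliary genes 1 of 12 did (median 0.08). This was Lrp8, a reelin receptor found with NMDA receptors, at 48.8 ± 7.12 CPM in cKO and 38.3 ± 3.45 CPM in WT, without overlap. Nedd4, a ubiquitin ligase, was at a log2 value of 0.23 and Ap2m1, a clathrin adaptor subunit, at 0.08 (0.05 without cKO 4 and the library labelled cKO 5). Of the co-agonist genes 1 of the 9 tested did so (median 0.00067): Slc7a10, a D-serine and glycine transporter, at 19.9 ± 4.14 CPM in cKO and 14.8 ± 0.997 CPM in WT. Psph and Psat1, enzymes of serine synthesis, were at -0.43 and -0.21, and at -0.10 and 0.0076 without cKO 4 and the library labelled cKO 5. Without the library labelled cKO 5 the count was 0 in both lists, and without it and cKO 4 it was 2 and 1, all above 0. The shares of all genes higher in cKO were then 4.47% and 4.45%.

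**Figure D4:**
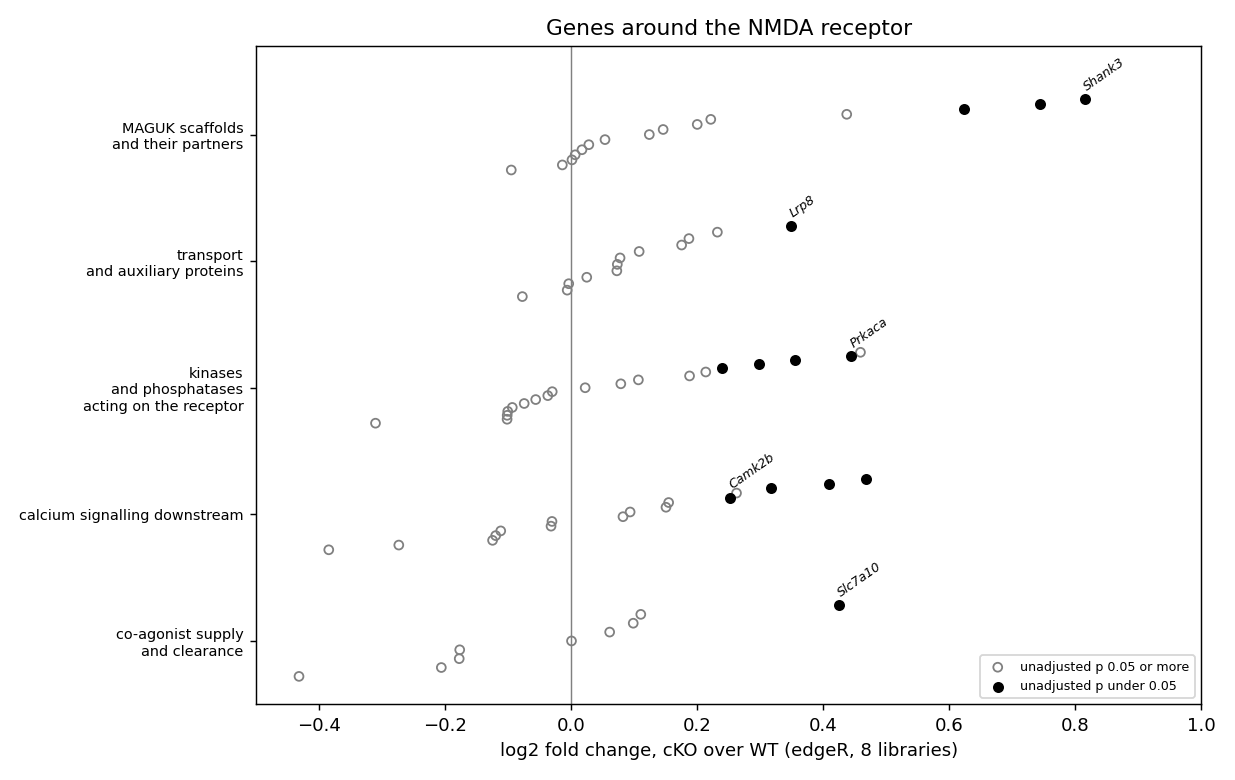
Log2 fold change of cKO over WT (horizontal axis, edgeR, 8 libraries) for the genes of 5 lists around the NMDA receptor, 1 point per gene, filled where the unadjusted p was under 0.05, with the gene of smallest p in each list named. All 13 filled points lie above 0, from 0.24 for Dapk1 to 0.82 for Shank3, and none passed after adjustment.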

How the data were processed

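The authors deposited raw counts per Ensembl gene for all 8 libraries. STAR 2.5.3a, HTSeq and build mm10 are named in the submitters' processing notes; annotation release, strand setting, filters and read length are not given in the sources used here. Symbols (96.6% of genes), positions, lengths and GC content came from GENCODE vM21. Counts were fitted in R 4.3.3 with edgeR 4.0.16 (TMM, filterByExpr by group, robust quasi-likelihood, two-sided, Benjamini-Hochberg over 17654 genes), and the SE is the log2 fold change over the root of F. Log2 CPM used a prior count of 2. Alternatives used DESeq2 1.42.0, limma 3.58.1, other scalings and filters, left-out libraries, 6 libraries with and without a replicate block, a GC and length correction and a non-neuronal covariate. The edgeR, DESeq2 and limma-voom fits were tested on simulated data. From each pathway list the 3 genes with the smallest p are named; some genes and sequences are not reported here. Members and lists were chosen with earlier results of these data known. The sum of Grin1 and Grin1os and the counts of called genes without doubtful libraries were added after seeing the data. Figures used Python 3.11.15 and matplotlib 3.10.9.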

Additional observations from a re-analysis of the deposited data

Results flagged for a closer look

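Of 37 sets of 5 cKO values searched for a single library far from the others, 4 stood out, where chance flags about 1 in 20. Grin2c was at 1.82 CPM in the library labelled cKO 5 and at 0 to 0.312 CPM in cKO 1 to 4, and this gap made up 0.829 of the range. Nos1 was at 188 CPM in the library labelled cKO 5 and at 110 to 131 CPM in the others, a gap of 0.727. Hltf was at 11.4 CPM in the library labelled cKO 5 and at 2.83 to 5.10 CPM in the others, a gap of 0.737. The microglia markers summed to 7.86 CPM in cKO 4 and 13.3 to 14.7 CPM in the others, a gap of 0.791, against 10.6 to 17.7 CPM in WT.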

How the results depend on the processing

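Genes called by edgeR numbered 1 with total counts only, 2 without a filter, 2 with at least 1 CPM in 3 libraries, 10 over the 6 libraries without a replicate block, 1 there with the block and the GC and length correction, 329 with the non-neuronal covariate and 2 at an adjusted p under 0.1; DESeq2 called 125 and limma-voom 4. With the replicate block alone 0 were called, and the log2 fold change of Grin1 was 0.34. Deviations from the group means of same-numbered libraries had r of -0.085, 0.017 and 0.041. These values cannot show whether same-numbered libraries were related, because a group mean also shifts with outlying libraries of its group. The relation between pools was not given. Of 145 alternatives on single subunit genes, 18 changed sign, 126 did neither that nor cross the threshold, and 1 crossed it: Grin1 with the covariate (0.91); across the alternatives the adjusted p lay between 0.0105 and 0.951 and the log2 fold change ran from 0.24 (6 libraries, block and correction) to 0.91, and with 1 library left out from 0.54 to 0.77. Over 6 libraries Grin2a was at -0.065 (-0.069 with the block, -0.095 with block and correction) and Grin2b at -0.13 (-0.13 and -0.17). Grin2b was at -0.030 by limma-voom and between -0.017 and 0.30 with 1 library left out. Grin2d was at -0.013 with total counts only, -0.28 with the GC and length correction, -0.078 with block and correction, -0.051 with the covariate and between -0.053 and 0.14 with 1 library left out. Grin3b was at 0.049 by limma-voom, 0.035 with the block and between -0.42 and 0.21 with 1 library left out. The cause of these reversals was not tested. With the longest transcript as length, Grin2b to Grin2a in WT was 7.02 and Grin1 to summed Grin2 was 0.379 in cKO and 0.270 in WT, while the order of the 7 genes stayed. Grin2c could not be fitted without cKO 1 or with at least 1 CPM in 3 libraries, since it then failed the filter, as Grin3b did with that CPM filter. Counts of 0 to 67 for Grin2c and 20 to 49 for Grin3b limit both genes.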
